A study of Mus musculus with 8 samples.

Results

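The first 15 min after actinomycin D were followed in P19 cells, a mouse embryonal carcinoma line, as 2 pairs of conditions: 15 min against 0 min in cells given a control siRNA, and the same in cells given an siRNA against Upf3a. These are 4 of the 8 conditions of the study, which also sampled 105 and 225 min. All cells were grown in the same medium and transfected 24 h before the drug, so both arms carry an siRNA and all conditions are labelled with the drug, the 0 min conditions being its start. The deposited table holds 1 FPKM (fragments per kilobase of transcript, scaled to sequencing depth) per gene and condition, for which the labels list 2 cultures; the value of a single culture was not analysed here. Of 23284 genes in the table, 8354 had a mean FPKM of 5 or more over the 4 conditions and were tested. The gene just inside this limit, Dtx3l, had a mean of 5.0035 and the gene just outside, Abcc4, 4.9997.

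Actinomycin D intercalates into GC-rich DNA and blocks elongating RNA polymerases; transcription of ribosomal RNA is the most sensitive, and synthesis by RNA polymerase II stops soon after. What is lost in the first minutes is therefore mainly RNA with a very short life, such as spliced-out introns, unstable noncoding transcripts, messages of immediate early genes and messages with AU-rich elements in the 3′ UTR. Polymerases already on a gene and unspliced precursors can still add to some mature transcripts for a short time. FPKM is a share of the sequenced RNA, so a value can also move because other RNAs moved.

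Upf3a, the targeted gene and a factor of nonsense-mediated decay (NMD), had FPKM values of 13.6 at 0 min and 14.0 at 15 min in the control arm, and 5.27 and 4.52 in the knockdown arm, so the targeted gene was lower in both conditions labelled as knockdown. Its paralog Upf3b was at 10.9 and 11.9 in the control arm and at 9.80 and 8.24 in the knockdown arm. The pluripotency factor Pou5f1 lay between 1391 and 1623 FPKM in the 4 conditions and Lin28a between 209 and 288, while the endoderm factor Sox17 stayed at or below 0.168 and the fibroblast collagen Col1a1 at or below 1.59. The neuronal tubulin Tubb3 was present, at 40.7 to 46.4. One library stood apart: Rn45s, the ribosomal RNA precursor, was at 729 and 793 in the control arm and at 688 and 2552 in the knockdown arm, and Lars2, a mitochondrial leucyl-tRNA synthetase gene, was at 131, 132, 131 and 349 in the same order.

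Most genes moved little in 15 min. The median change was -0.05 on the log2(FPKM + 1) scale in the control arm and 0.00 in the knockdown arm. The 2 arms differed from each other in their change by a median of 0.09, and 95% of genes differed by less than 0.31, which was taken as the noise floor and equals a ratio of 1.24. The mean change of the 2 arms was smaller than 0.14 in 90% of genes. Across the 8312 genes that are not small RNAs, the changes in the 2 arms had a Pearson correlation of 0.17 and a Spearman correlation of 0.14, given as a description since all genes share the same 4 libraries. A total of 2962 genes (35.5% of those tested) were lower in both arms, 1580 (18.9%) were higher in both, and 3812 went opposite ways or were level in an arm. With each arm centred on its own median change, 2270 genes were lower in both arms and 2270 higher in both, 27.2% each. The floor was 0.33 for genes of FPKM 5 to 10, 0.29 for 10 to 50 and 0.30 above 50, small RNAs left out.

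**Figure D1:**
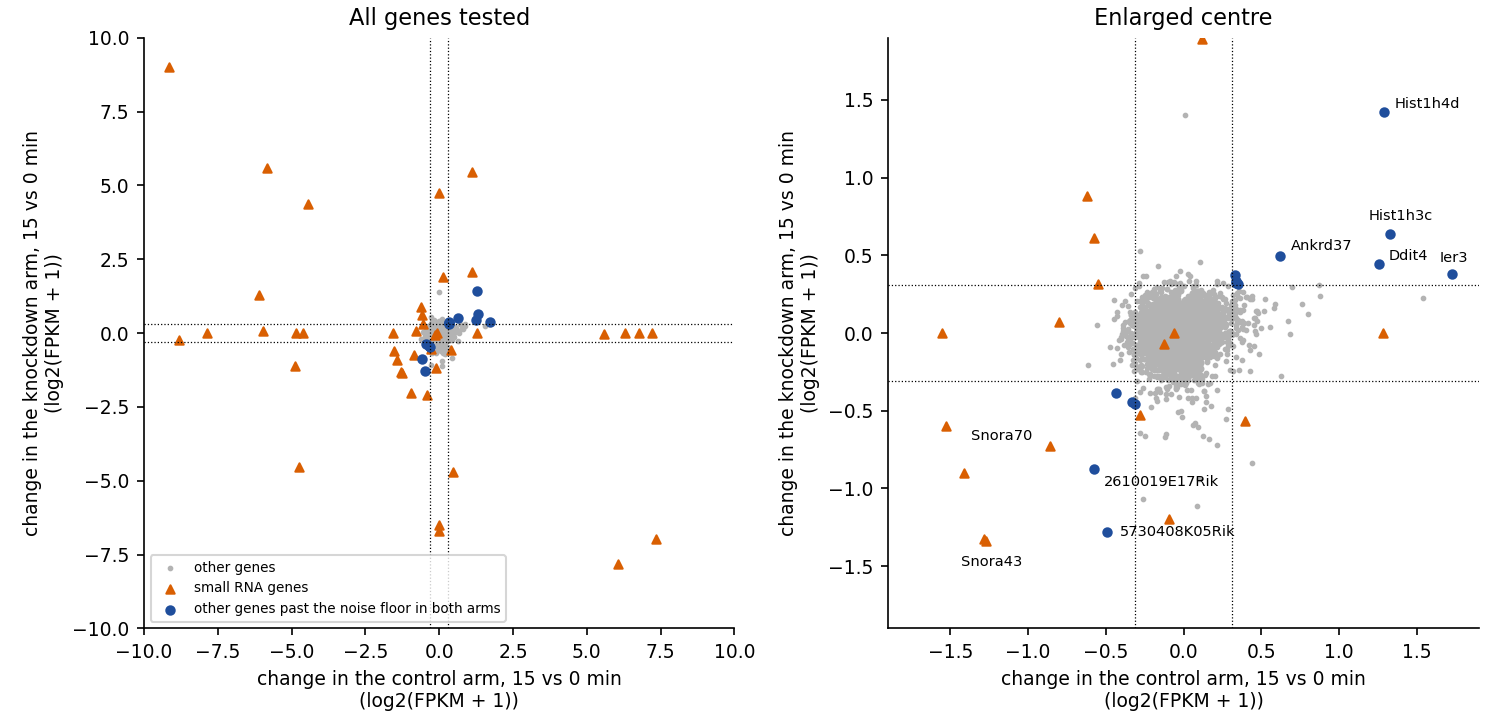
Change from 0 to 15 min in the control arm (x axis) against the knockdown arm (y axis), in log2(FPKM + 1), for the 8354 genes tested, with all genes on the left and the centre enlarged on the right. Dotted lines mark the noise floor of 0.31; the 14 other genes past it in both arms (blue) are 5 lower and 9 higher, while small RNA genes (orange) spread along both axes.

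A model fitted across all genes (limma, with arm and time as terms and Benjamini-Hochberg adjustment) called 3 genes lower at 15 min (0.0359%) and 1 higher (0.012%) at an adjusted p below 0.05. At an unadjusted p below 0.05 there were 282 lower and 227 higher, 6.09% of genes in all. The 3 lower genes were the box H/ACA small nucleolar RNAs Snora21, Snora43 and Snora7a, which guide pseudouridylation, and the higher gene was the replication-dependent histone Hist1h4d, whose mean reached the FPKM limit only through its 15 min values. Snora21 in turn reached this limit only through its 0 min values. By the second criterion, a change past the noise floor in both arms in the same direction, 14 genes were lower (0.168%) and 11 higher (0.132%); after quantile normalization the counts were 13 and 17. The lower group was made of 9 small nucleolar RNAs and 5 long noncoding RNAs, with no protein-coding message in it. The higher group held 9 protein-coding genes, the noncoding RNA Rmrp and Snora3. The limits that the authors deposited with each FPKM were apart in both arms for only 2 lower genes, Snora21, with 15 min values listed at 0 in both arms, and Snora16a, listed at 0 in the control arm and at 13.1 after 29.5 in the knockdown arm, and for no higher gene. Since each condition has 1 value, the p-values measure only how far the 2 arms differ, with 1 residual degree of freedom before the spread is shared across genes.

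The 3 small nucleolar RNAs that limma called lower are shown, from GENCODE vM21 with the ACA box, 3 bases from the 3′ end, in capitals.
Snora21: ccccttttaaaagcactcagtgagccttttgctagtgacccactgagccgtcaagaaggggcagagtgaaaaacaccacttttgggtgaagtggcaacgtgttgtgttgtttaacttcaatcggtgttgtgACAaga
Snora43: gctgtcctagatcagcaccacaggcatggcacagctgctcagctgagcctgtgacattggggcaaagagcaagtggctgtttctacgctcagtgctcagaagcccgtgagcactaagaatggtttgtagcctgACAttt
Snora7a: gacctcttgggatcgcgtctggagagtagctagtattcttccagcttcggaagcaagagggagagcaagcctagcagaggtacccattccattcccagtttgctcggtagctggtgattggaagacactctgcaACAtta
They lie on the minus strand of GRCm38 at chr11:97781639-97781775, chr2:26637847-26637985 and chr6:115807975-115808114, each within the span of a longer host gene (Rpl23, Snhg7 and Rpl32, in this order). They are 137, 139 and 140 bases long.

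Snora43 went from an FPKM of 148 to 60.6 in the control arm and from 105 to 40.7 in the knockdown arm. The log2 change was -1.31 ± 0.06 (SE; limma adjusted p = 0.0040), and its values at 15 min lay below both values at 0 min. Limma shared its spread across all genes (prior SD 0.063), while the arms differed by a median of 2.77 for small RNA genes and 0.09 for others. The SE and p-values of small RNA genes are therefore likely too small. Snora7a went from 33.0 to 12.9 and from 50.2 to 19.4, a change of -1.31 ± 0.06 (limma adjusted p = 0.0040). Snora21 went from 25.8 and 22.4 to values listed at 0 in both arms (limma adjusted p = 4.0e-05), and no ratio is given since a listed 0 can be a failed estimate. It passed the FPKM limit of 5 only through its 0 min values. To be tested it had to be lower at 15 min, so its p-value is no independent support. The authors' limits on Snora7a at 0 min ran from 0 to 1337 in the control arm and from 0 to 1657 in the knockdown arm. The arms agreed more closely than these limits, but limma favours genes whose arms agree, so this closeness is no measure of precision. At 105 and 225 min the 3 did not follow one course: Snora7a was at 51.4 and 33.6 in the control arm and 72.4 and 88.1 in the knockdown arm, Snora21 was back at 25.2 and 20.5 and at 41.9 and 47.1, and Snora43 was at 39.2 and 0 and at 0 and 16.5. With all 8 conditions in the fit, Snora43 and Snora7a were no longer called (limma adjusted p = 0.93 and 0.29).

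The other small nucleolar RNAs past the floor were Snora70, Snora52, Snora78, Snora17, Snora34 and Snora16a. Snora70 went from 89.6 to 49.0 in the control arm and from 86.3 to 51.7 in the knockdown arm (limma adjusted p = 0.056). Snora52 went from 100.3 to 37.0 and from 68.2 to 36.1 (limma adjusted p = 0.22). Among all 25 Snora genes tested, 11 were lower in both arms and 1, Snora3, was higher in both; 13 had a value listed at 0 in at least 1 of the 4 conditions. For the 42 small RNA genes together the arms differed by a median of 2.77, against 0.09 for other genes, so the arms agreed less for this class. Rn45s, a long precursor, was counted in this class. The host messages differed among themselves: Snhg7, the host of Snora43 and Snora17, changed by -0.12 in the control arm and -0.67 in the knockdown arm, while Rpl32 changed by -0.11 in the control arm and -0.01 in the knockdown arm and Rpl23 by -0.08 and 0.00. Of 35 small RNA genes inside a single tested host, the host was lower in both arms for 16. There were 32 distinct hosts, so some, Snhg7 and Snhg12 among them, count more than once. Over all genes tested, 35.5% were lower in both arms. Rmrp, the RNA of the RNase MRP particle that cuts ribosomal RNA precursors, went the other way, from 4.68 to 11.2 in the control arm and from 7.51 to 35.0 in the knockdown arm (limma adjusted p = 0.51), and its larger step was in the library with the high Rn45s value; whether the 2 are linked was not tested.

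Among longer transcripts the largest losses were in noncoding RNAs. 2610019E17Rik (Rab26os in RefSeq) went from 53.3 to 35.4 in the control arm and from 37.8 to 20.1 in the knockdown arm, a log2 change of -0.73 ± 0.09 (limma adjusted p = 0.27). 5730408K05Rik went from 14.8 to 10.2 and from 16.3 to 6.13. Gt(ROSA)26Sor, the noncoding transcript of the Rosa26 locus used for transgene insertion, went from 22.2 to 16.2 and from 18.5 to 13.9 (log2 change -0.41 ± 0.06, limma adjusted p = 0.51). The authors' limits on Gt(ROSA)26Sor overlapped, from 4.78 to 39.7 at 0 min and from 0 to 33.4 at 15 min in the control arm. 5730408K05Rik, Gt(ROSA)26Sor and Snhg4, described below, share a locus with another gene, so reads may be split between the genes of a locus. All 5 long noncoding RNAs past the floor were lower still at 105 min than at 15 min in both arms, and all 5 were higher again at 225 than at 105 min, as the time courses show for 4 of them. 2610019E17Rik, 5730408K05Rik and Gt(ROSA)26Sor are named here for their values; the first and second fell outside the naming rule.

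Host genes of small nucleolar RNAs, whose spliced transcripts are often degraded by NMD while the intron yields the small RNA, were mostly lower at 15 min. Of 20 tested, 14 were lower in both arms and none was higher in both, with a median of -0.11 against -0.03 over all genes; no member passed the adjusted threshold and 9 had an unadjusted p below 0.05. The counts of 14 and 0 were the same after each arm was centred on its median. Gm11974 (Snhg15) went from 28.1 to 22.1 in the control arm and from 29.3 to 21.3 in the knockdown arm (log2 change -0.39 ± 0.06, limma adjusted p = 0.73). Snhg4 went from 25.5 to 20.3 and from 25.2 to 18.0. Snhg3 went from 94.4 to 76.6 and from 85.9 to 69.1, and Snhg8 from 19.6 to 15.9 and from 17.4 to 10.7. In each of these 4 genes both values at 15 min lay below both values at 0 min. The members differed: Snhg1, the most abundant of those named, was at 384 and 358 in the control arm and at 393 and 424 in the knockdown arm, and 1500012F01Rik (Zfas1) also went opposite ways, by 0.13 and -0.12. Several hosts share a locus with the small RNA they hold, so reads may be split between them, and with shared loci left out 7 hosts remained with a median of -0.08. The step was larger in the knockdown arm than in the control arm in several hosts, Snhg8 above among them. The values were Snhg12 at -0.39 against -0.22, Snhg7 at -0.67 against -0.12, 2700023E23Rik (Dancr) at -1.07 against -0.26 and Gas5 at -0.39 against -0.11. In Snhg3 the steps were alike, at -0.31 against -0.30, and over the 20 hosts the medians were -0.14 and -0.12. The 15 min knockdown library is also the one with the high Rn45s value. The difference between arms has no replicate and was not tested.

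**Figure D2:**
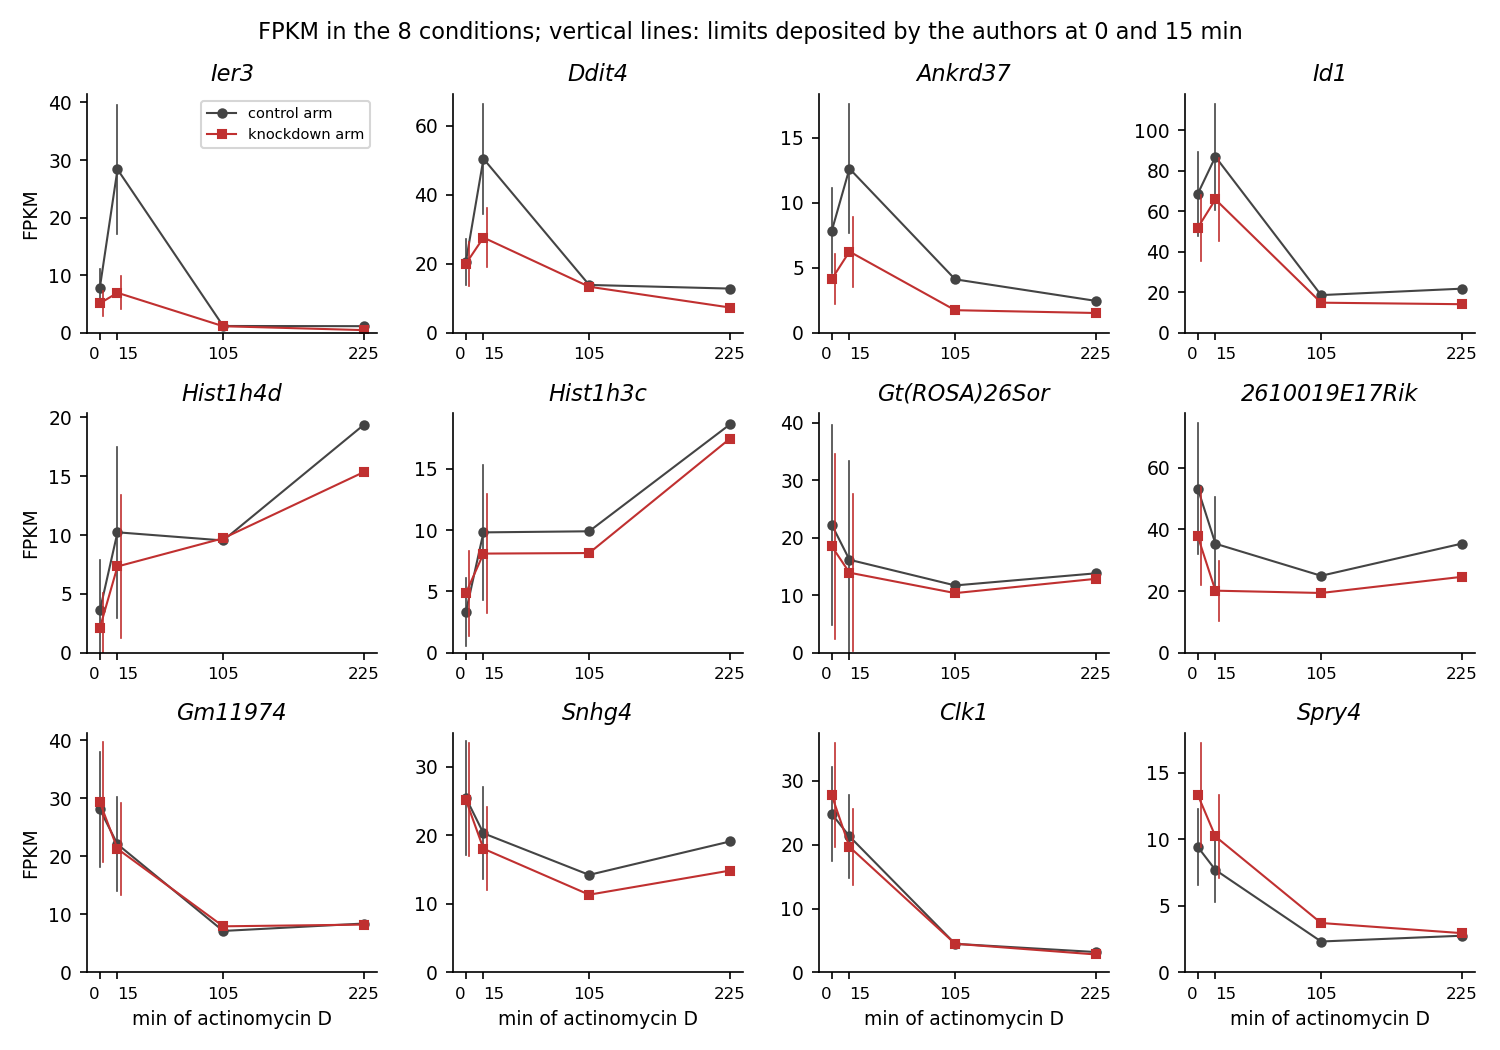
FPKM (y axis) at 0, 15, 105 and 225 min of actinomycin D (x axis) for 12 genes in the control arm (grey circles) and the knockdown arm (red squares), with the limits deposited by the authors as vertical lines at 0 and 15 min. Ier3, Ddit4, Ankrd37 and Id1 peaked at 15 min and were below their 0 min value at 105 min, both histones stayed high, and the lower 6 genes dropped from 0 to 15 min and again to 105 min.

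Splicing regulators were also more often lower than higher. Of 30 SR proteins, SR protein kinases and related factors, many of which carry poison exons that route transcripts to NMD, 19 were lower in both arms and 1 was higher in both (median -0.08; no member called, 3 at an unadjusted p below 0.05), and after centring the counts were 18 and 3. Clk1, a kinase of SR proteins with a large store of unspliced transcript, went from 24.8 to 21.3 in the control arm and from 27.7 to 19.6 in the knockdown arm, and reached 4.47 and 4.48 at 105 min. Rbm25, a splicing regulator, went from 15.5 to 12.4 and from 35.0 to 30.1, and Luc7l3 from 29.4 to 26.1 and from 32.4 to 25.0. These members had a median GC content of 43.7%, which is below the 50.6% over all genes, and low GC went with loss over the whole table, as described further on; with that trend removed their median was -0.04 against -0.02 over all genes. No member of the next lists was called either. Of 13 genes of transcription pausing and P-TEFb 8 were lower in both arms and 2 higher, and 6 and 4 after centring. Their median was -0.06, and -0.08 with the GC and length trend removed. Among 12 factors that bind AU-rich elements 7 were lower and 2 higher (median -0.06). With the trend removed their median was -0.02, as over all genes, with 6 members above 0 and 6 below. Among 6 nuclear long noncoding RNAs 2 were lower and none higher (median -0.09). The median of these 6 was 0.03 in the control arm and -0.19 in the knockdown arm, so the arms did not lean the same way. Of 20 known NMD targets 11 were lower in both arms and 1, Tbl2, was higher in both (median -0.06), and of 13 NMD factors 4 were lower and 1 higher (median -0.03).

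Among protein-coding messages the losses by the naming rule were small and none passed the adjusted threshold (log2 changes between -0.46 and -0.26 over the 12 named genes, the noncoding hosts included; limma adjusted p from 0.51 to 0.77). Mkrn3, an imprinted gene for a ring-finger protein, went from 6.93 to 5.40 in the control arm and from 7.09 to 5.06 in the knockdown arm, and was at 0.842 and 0.680 by 105 min. Vamp2, a vesicle fusion protein, went from 18.7 to 15.2 and from 14.1 to 10.6. Spry4, a feedback inhibitor of ERK signalling, went from 9.44 to 7.70 and from 13.3 to 10.2. Mier3, Pigw, Slc7a1, Dgcr8 and Mettl5 had log2 changes between -0.28 and -0.26. Mkrn3, Spry4 and Mier3 kept losing FPKM up to 105 min. Slc7a1, a transporter of basic amino acids, and Mettl5, a ribosomal RNA methyltransferase, did not: Slc7a1 was at 8.79 and 10.2 at 15 min and at 8.75 and 10.1 at 105 min, and Mettl5 ended at 16.6 and 19.8 at 225 min, above its 0 min values of 15.9 and 17.2.

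Feedback inhibitors of signalling, many with short-lived messages, had small changes at 15 min. In the ERK list 7 of 13 were lower in both arms and 2 higher (median -0.07), in the Id and BMP list 6 of 9 were lower and 1, Id1, higher (median -0.06), and in the Notch and Wnt list 3 of 6 were lower and none higher (median -0.03). After centring, the counts were 6 lower and 1 higher, 3 and 2, and 3 and 1, in this order, against 27.2% each over all genes. The lower members included Spry2 at -0.18 and -0.17 and Dusp6, a phosphatase of ERK, at -0.18 and -0.13 in the control and knockdown arms. Dusp6 shows how short 15 min is beside the later steps, with 28.3, 24.9, 4.15 and 2.90 FPKM at the 4 times in the control arm. Smad7, an inhibitor of TGF-beta and BMP signalling, went from 9.44 to 8.03 and from 8.09 to 6.78. Axin2, a Wnt target that limits beta-catenin, went from 5.79 to 4.78 and from 8.80 to 7.37. Myc went from 8.82 to 7.70 and from 15.6 to 14.1 before dropping to 1.20 and 2.23 at 105 min. None of these was called.

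Messages that were higher at 15 min included several genes known to be inducible. Ier3, an immediate early gene of stress and growth signals, went from 7.88 to 28.4 in the control arm but only from 5.13 to 6.96 in the knockdown arm, and was at 1.20 and 1.16 at 105 min. Its log2 changes were 1.73 and 0.38, so the arms agreed in direction and not in size (limma adjusted p = 0.77). Ddit4 (REDD1), an inhibitor of mTORC1 induced by stress and low oxygen, went from 20.6 to 50.5 and from 20.0 to 27.6, and was at 13.9 and 13.4 at 105 min (limma adjusted p = 0.77). Id1, a BMP-induced inhibitor of bHLH factors, went from 68.7 to 86.9 and from 51.9 to 65.8, with log2 changes of 0.34 in both arms, and was at 18.6 and 14.9 at 105 min. The authors' limits on Ier3 were apart in the control arm, from 4.74 to 11.0 at 0 min and from 17.2 to 39.6 at 15 min, and overlapped in the knockdown arm. Of the 9 protein-coding genes past the floor, 6 were below their 0 min value by 105 min and 7 by 225 min, in both arms.

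The immediate early list as a whole was split. Of 14 tested, 6 were lower in both arms and 4 higher in both, with a median of -0.01. Jund, an AP-1 subunit, went from 8.80 to 13.7 in the control arm and from 12.2 to 14.0 in the knockdown arm, and Maff, a small Maf factor, from 6.05 to 9.09 and from 5.92 to 6.64. Btg2, an antiproliferative gene, went from 6.71 to 5.93 and from 5.27 to 4.18, Srf from 27.9 to 25.3 and from 24.2 to 21.8, and Zfp36, which binds AU-rich elements, from 9.02 to 8.30 and from 6.47 to 5.76. The later courses differed too. At 105 min Ier3, Btg2 and Zfp36 were below 3 FPKM in both arms, while Jund was at 9.74 and 12.6, Maff at 5.98 and 6.40 and Srf at 25.6 and 24.1, close to their 0 min values. The sites below are shown because both Ier3 and Maff, higher at 15 min, carry AU-rich elements, with the searched motif in capitals (ATTTA for Ier3, TTATTTATT for Maff; sense strand only; DNA letters, GENCODE vM21), counted from the first base after the stop codon.
Ier3, from base 172 of the 3′ UTR (chr17): gtctaattaatATTTAtgtATTTAtgtata
Maff, from base 922 of the 3′ UTR (chr15): cttccacactcTTATTTATTgcacgaatct
The 613 bases of the Ier3 3′ UTR held 5 ATTTA pentamers, and the 1221 bases of Maff held 4 of them and 2 TTATTTATT nonamers, each of which contains the pentamer. Over all genes with a 3′ UTR, 66.1% held a pentamer and 6.69% a nonamer. Ddit4 and Id1 held no pentamer.

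Other short-lived regulators went both ways. Of 16 regulators of the cell cycle and of cell death, 5 were lower in both arms and 6 higher in both (median 0.01; no member called). Sgk1, a kinase induced by serum and steroids, went from 53.4 to 43.8 in the control arm and from 77.9 to 69.0 in the knockdown arm. Pim3, a survival kinase, went from 27.1 to 31.0 and from 27.0 to 30.5, and the clock gene Per1 from 10.4 to 12.7 and from 9.78 to 10.6. Cdt1, a licensing factor of DNA replication, went from 45.9 to 51.3 and from 49.3 to 54.0. All 4 were below their 0 min values by 105 min in both arms. With the GC and length trend removed, the mean changes of Pim3, Per1 and Cdt1 went from 0.18, 0.18 and 0.15 to 0.10, 0.12 and 0.09. That of Sgk1 went from -0.23 to -0.21. Ccng2, a cyclin that restrains the cycle and lies outside the naming rule, went from 11.8 to 18.2 and from 6.03 to 6.86. Klf and Sp factors were lower in both arms in 5 of 14 and higher in 5, p53 targets in 6 and 3 of 12, genes of stress and the unfolded protein response in 9 and 5 of 17, and heat shock genes in 2 and 3 of 13. No member of these 4 lists was called.

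Known targets of hypoxia-inducible factors were mostly higher at 15 min. This list was chosen after the values were seen, so it is a description only. Of 17 tested, 12 were higher in both arms and 1 lower in both, with a median of 0.15 against -0.03 over all genes. Ankrd37, an ankyrin repeat gene induced by low oxygen, went from 7.85 to 12.6 in the control arm and from 4.14 to 6.25 in the knockdown arm, a log2 change of 0.56 ± 0.06 (limma adjusted p = 0.24), and was at 4.12 and 1.74 at 105 min. Egln3, an oxygen-sensing prolyl hydroxylase, went from 7.48 to 10.3 and from 6.17 to 7.43. Bnip3, a mitophagy receptor, went from 55.1 to 74.5 and from 37.6 to 43.9. Pdk1, which keeps pyruvate out of the mitochondrion, went from 12.6 to 15.1 and from 11.8 to 14.0, and the glucose transporter Slc2a1 from 149 to 166 and from 151 to 170. Kdm3a, P4ha1, P4ha2, Egln1 and Hk2 had log2 changes between 0.14 and 0.16. Vegfa went opposite ways, from 8.14 to 9.53 and from 6.72 to 5.36. With the GC and length trend removed the list's median was 0.14 and 14 of 17 members stayed above 0.

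The promoter windows of 4 of these genes are shown with the core of the hypoxia response element, ACGTG or its reverse complement CACGT, in capitals (RefSeq, GRCm38.p6, 5′ to 3′ on the gene's strand, 61 bases each).
Ddit4, chr10:59951925-59951985, minus strand: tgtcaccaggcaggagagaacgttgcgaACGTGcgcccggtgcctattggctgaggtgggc
Egln3, chr12:54204064-54204124, minus strand: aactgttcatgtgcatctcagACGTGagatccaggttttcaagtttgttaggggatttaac
Bnip3, chr7:138909581-138909641, minus strand: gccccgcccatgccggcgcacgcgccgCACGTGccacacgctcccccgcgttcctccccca
Slc2a1, chr4:119108681-119108741, plus strand: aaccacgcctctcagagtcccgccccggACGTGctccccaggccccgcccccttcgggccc
In Bnip3 the letters overlap as CACGTG, which matches on both strands. The motif was found in 13 of the 16 list members with a promoter in the table, which covers 250 bases before to 50 bases after the start, in 28.1% of the promoters of 6709 tested genes and in 19.6% of all 32851 promoters. A match says only that the letters are there.

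Genes of the cholesterol synthesis list, which are induced together by SREBP2 when sterols are low, leaned upward by small amounts. Of 25 tested, 19 were higher in both arms and 2 lower in both (median 0.09, 0.06 in the control arm and 0.10 in the knockdown arm); no member was called and 1 had an unadjusted p below 0.05. After centring, 21 were higher and 1 lower. Mvd, the decarboxylase of the mevalonate pathway, went from 25.1 to 26.9 and from 20.5 to 24.8. Sc4mol (Msmo1), a sterol oxidase, went from 31.9 to 37.2 and from 24.2 to 25.8, and Insig1, which holds back SREBP processing, from 37.5 to 43.3 and from 27.5 to 29.2. Each of these changes was below the noise floor of 0.31. Of 20 glycolysis genes 8 were higher and 1 lower in both arms (median 0.02), and after centring 11 were higher and none lower.

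Replication-dependent histones, whose messages end in a stem-loop in place of a poly(A) tail, had only 3 of 61 members above the FPKM limit. With a limit of 1 the list held 11 tested genes with a median change of 0.32, and with no filter 52 with a median of 0.22, against 0.98 for these 3. Hist1h4d went from 3.58 to 10.2 in the control arm and from 2.11 to 7.33 in the knockdown arm, a log2 change of 1.36 ± 0.06 (limma adjusted p = 0.0040), with both values at 15 min above both at 0 min. Hist1h3c went from 3.31 to 9.81 and from 4.85 to 8.08 (limma adjusted p = 0.73). Both passed the limit of 5 only through their 15 min values, so they had to differ in that direction, and the p-value and the order of the values are no independent support. With the limit set at 1, which the 0 min values of Hist1h4d pass by themselves, its adjusted p by limma was 0.0063. Hist1h4d and Hist1h3c were higher still at 225 min, at 19.4 and 15.4 for Hist1h4d and 18.6 and 17.5 for Hist1h3c. Hist3h2ba went opposite ways, by 0.63 and -0.28. The authors' limits on Hist1h4d overlapped, from 0 to 7.92 at 0 min and from 2.95 to 17.5 at 15 min in the control arm.

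The naming rule favours genes whose arms agree, and it named further genes that were higher at 15 min. Sox3, a neural and pluripotency transcription factor, went from 20.0 to 25.7 and from 22.7 to 28.6. Adat3, a subunit of the tRNA adenosine deaminase, went from 4.35 to 5.72 and from 7.92 to 10.6, and Ppp1r13l, an inhibitor of p53, from 6.38 to 8.31 and from 5.25 to 6.82. Tpra1, Pkmyt1, an inhibitory kinase of Cdk1, Akt1s1, a subunit of mTORC1, Sipa1, a Rap GTPase activator, and Ndufb2, a subunit of respiratory complex I, had log2 changes between 0.29 and 0.32. Sox3, Adat3, Ppp1r13l, Pkmyt1, Akt1s1 and Sipa1 have a GC content above 60%. With the GC and length trend removed, Sox3, Adat3 and Ppp1r13l had changes of 0.23, 0.27 and 0.25, below the floor. Fgf8, a growth factor of the early embryo, went from 27.2 to 34.9 and from 49.5 to 58.3, Foxd3 from 11.8 to 14.2 and from 20.4 to 23.0, and Utf1, a chromatin factor of pluripotent cells, from 127 to 148 and from 235 to 256, while Nanog was at 53.4 and 47.7 and at 80.1 and 77.7. Fgf8, Foxd3 and Utf1 also have a GC content above 60%, and Nanog has 45.8%. With the trend removed the mean changes went from 0.29 to 0.22 in Fgf8, from 0.21 to 0.11 in Foxd3 and from 0.18 to 0.10 in Utf1. In Nanog the mean change went from -0.10 to -0.07. Pluripotency genes as a list did not move together, with 9 of 27 lower and 3 higher in both arms.

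Ribosomal protein and oxidative phosphorylation genes, with abundant and stable messages, served as a comparison, and lists of RNA metabolism are given beside them. Of 79 cytosolic ribosomal proteins 32 were lower in both arms and 4 higher (median -0.04, with -0.08 in the control arm and 0.00 in the knockdown arm), and of 74 nuclear-encoded subunits of oxidative phosphorylation 13 were lower and 11 higher. Genes for RNA polymerase I and ribosome biogenesis were lower in both arms in 14 of 25 and higher in none, and RNA decay factors in 21 of 43 and 4, with medians of -0.05 in each list. After centring, 22 ribosomal protein genes were lower and 8 higher, and 11 oxidative phosphorylation genes were lower and 19 higher, so the lean of the second list turned upward. For RNA polymerase I and ribosome biogenesis the centred counts were 12 lower and 4 higher, and for RNA decay factors 18 and 9. The shares over all genes, 35.5% lower and 18.9% higher in both arms, are the background to read the uncentred counts against. Cnot6l, a deadenylase subunit, went from 7.07 to 6.07 and from 6.73 to 5.56, Tob1, which recruits deadenylases, from 7.95 to 6.71 and from 6.09 to 5.38, and Dcp1a, a decapping factor, from 10.4 to 8.81 and from 13.2 to 11.6. By 105 min Cnot6l was at 2.40 and 2.31, Tob1 at 2.53 and 2.36 and Dcp1a at 3.71 and 4.96, so their messages were not stable ones.

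**Figure D3:**
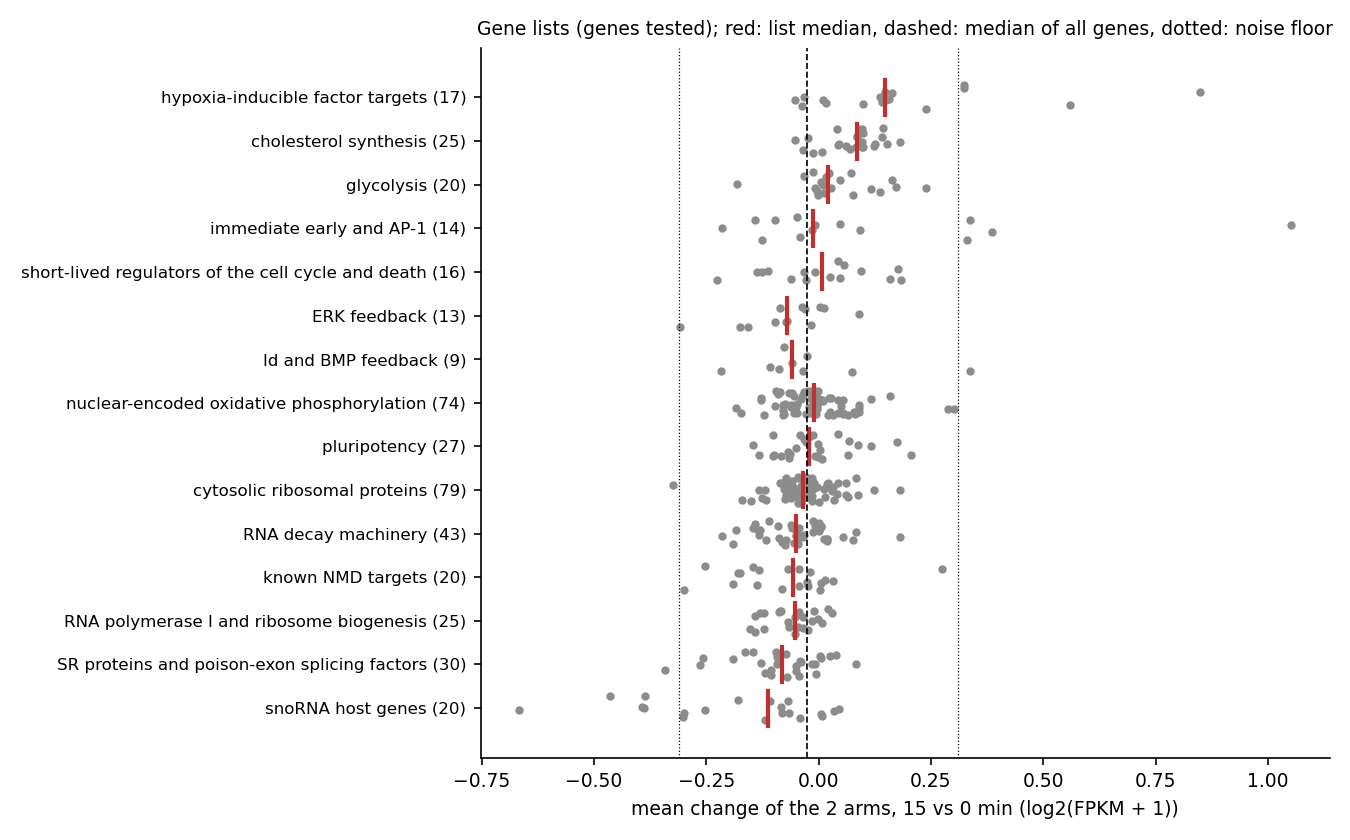
Mean change of the 2 arms from 0 to 15 min (x axis, log2(FPKM + 1)) for each tested gene of 15 lists (points, number of genes in parentheses), with the list median as a red bar, the median of all genes dashed and the noise floor of 0.31 dotted. Hypoxia-inducible factor targets (median 0.15, chosen after the values were seen) and cholesterol synthesis (0.09) lie to the right of the dashed line, and snoRNA host genes (-0.11) to its left.

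The change over 15 min went with the base composition of the transcript in both arms. Over 8229 genes with an annotated transcript, small RNAs left out, the Spearman correlation of the change with GC content was 0.32 in the control arm and 0.36 in the knockdown arm, as a description across genes that share the same libraries. In the decile of genes with the lowest GC content (median 40.6%) the median change was -0.09 in the control arm and -0.06 in the knockdown arm, and in the decile with the highest (median 59.9%) it was 0.04 and 0.07. Every decile had a higher median than the one before it in both arms. Transcript length had correlations of opposite sign, 0.13 in the control arm and -0.25 in the knockdown arm.

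Genes sorted by their change over 15 min were also sorted, in part, by their later loss. The step from 105 to 225 min shares no value with the step from 0 to 15 min. Its median was -0.13 in the decile of genes lowest at 15 min, -0.04 in the next and 0.12 in the ninth, against 0.05 over all genes; in the top decile it was 0.10. The lowest decile had longer 3′ UTRs (median 1312 bases against 562 in the top decile), more of them with an ATTTA pentamer (75.6% against 52.0%) and with a TTATTTATT nonamer (9.15% against 6.22%). Longer 3′ UTRs hold more of any short motif, and their GC content differed as well (46.6% against 57.0%), so these features cannot be told apart here.

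**Figure D4:**
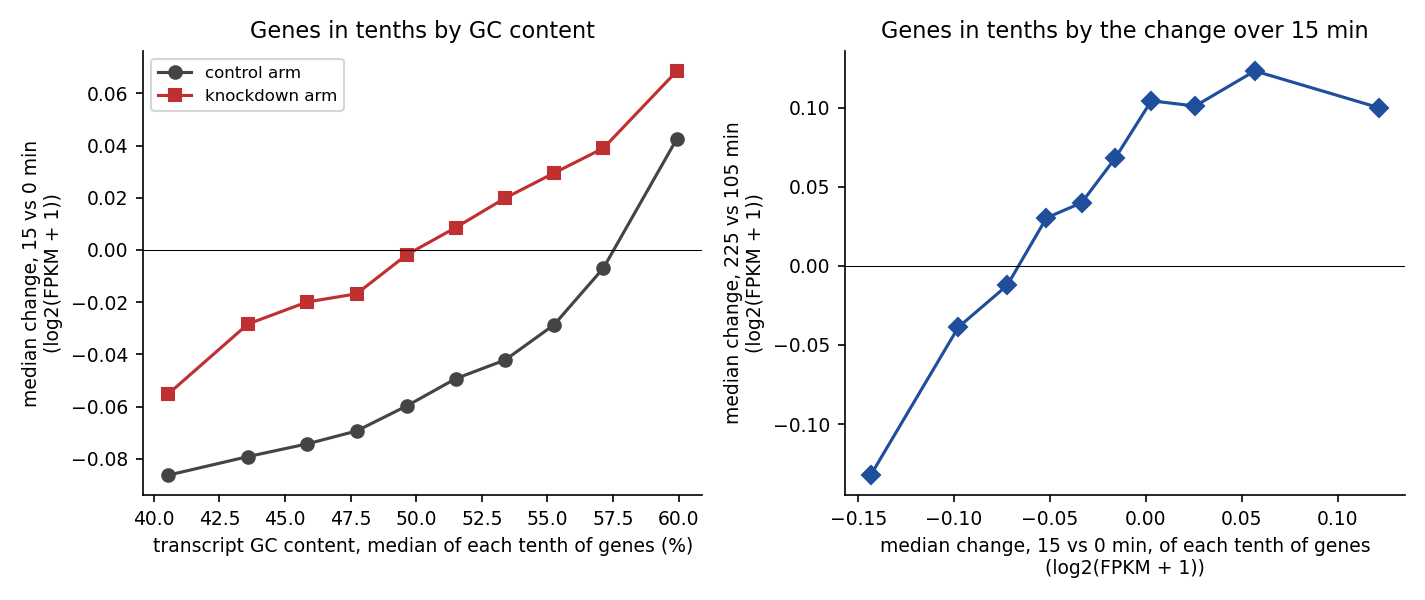
Left, median change from 0 to 15 min (y axis, log2(FPKM + 1)) in deciles of genes by transcript GC content (x axis, percent) in the control arm (grey) and the knockdown arm (red), going from -0.09 and -0.06 to 0.04 and 0.07. Right, median change from 105 to 225 min (y axis) in deciles of genes by the change from 0 to 15 min (x axis), both in log2(FPKM + 1), from -0.13 in the lowest decile to 0.10 in the highest.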

How the data were processed

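The submitters' processing notes name TopHat2, Cufflinks and the mm10 build; versions and the annotation are not given in the sources used here. Libraries came from total RNA, per the labels' protocols. Each FPKM was deposited by the authors with a lower and an upper limit whose level is not stated, per the file headers, and 1 value per condition, so the authors combined the 2 cultures; how is not stated. Depth is unknown, and FPKM keeps no count. The members, gene lists and tests were chosen with earlier results of these data known. Values were taken as log2(FPKM + 1) for genes whose FPKM averaged 5 or more over the 4 conditions. limma 3.58.1 in R 4.3.3 fitted arm and time, with eBayes without trend. Tables were read with Python 3.11.15 and pandas 2.3.3. The noise floor is the 95th percentile over genes of the absolute difference between the arms' changes. On simulated data with 200 changed genes of 8354, 8% of changes of 0.25, 88% of 0.5 and 100% of 1 were recovered, and 8.07% of 161 calls were false. There the true change was the same in both arms and the noise was drawn from the fitted spread. With so many calls the adjusted threshold was more lenient than in the data, where limma called 3 genes lower and 1 higher. Ankrd37, with a change of 0.56, had a limma adjusted p of 0.24, so the simulated shares do not carry over to the data. Named genes were those called, up to 12 in each direction, filled in order of limma's moderated t among genes of the same sign in both arms, and up to 4 members of each of 30 lists; other genes named were chosen after their values were seen. Small RNA, predicted and Rik genes were described as groups or named after their values were seen. GC content, UTRs and small RNA sequences are from GENCODE vM21 and positions of genes from RefSeq GRCm38.p6. A total of 19 alternatives were tried, 3 of them added after seeing the data; centring each arm on its median was also added then, for the counts of genes lower or higher in both arms.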

Additional observations from a re-analysis of the deposited data

Results flagged for a closer look

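In 12 genes the 2 arms moved in opposite directions, each by more than the noise floor; with 1 value per condition the difference between arms was not tested. Of these, 11 were small RNA genes. Changes are on the log2(FPKM + 1) scale and go from 0 to 15 min. Mir669i changed by -4.43 in the control arm and by 4.36 in the knockdown arm. Mir7-1 changed by 7.35 in the control arm and by -6.96 in the knockdown arm. Mir703 changed by -0.623 in the control arm and by 0.884 in the knockdown arm. Mirlet7d changed by -9.14 in the control arm and by 9.01 in the knockdown arm. Snora15 changed by -5.84 in the control arm and by 5.58 in the knockdown arm. Snora23 changed by 0.396 in the control arm and by -0.565 in the knockdown arm. Snora28 changed by 0.456 in the control arm and by -4.71 in the knockdown arm. Snora31 changed by -0.552 in the control arm and by 0.314 in the knockdown arm. Snora41 changed by -6.1 in the control arm and by 1.29 in the knockdown arm. Snora44 changed by 6.04 in the control arm and by -7.83 in the knockdown arm. Snord15b changed by -0.577 in the control arm and by 0.609 in the knockdown arm. Vmn2r-ps129 changed by 0.441 in the control arm and by -0.835 in the knockdown arm. For Mirlet7d, Mir669i, Mir7-1, Snora15 and Snora44 each arm had 1 of its 2 values listed at 0, and Snora28 and Snora41 had a value listed at 0 in 1 arm, so these sizes depend on the pseudocount. Vmn2r-ps129, a pseudogene of a vomeronasal receptor, is the only one that is not a small RNA gene, and its FPKM values were 7.59 and 10.7 in the control arm and 5.74 and 2.78 in the knockdown arm.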

How the results depend on the processing

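The counts are small and move with the setting. Genes called lower by limma numbered 3, and 0 with no filter on low values, with small RNA genes left out, or with shared loci, failed status and small RNA genes left out; 1 with no arm term or with all 8 conditions; and 5 with a trend and robust fit or with the GC and length trend removed. Genes called higher numbered 1, and 0 at a mean FPKM of 10 or more, with no filter or with no arm term, and 2 with a trend and robust fit. Hist1h4d, the gene called higher, had an adjusted p from 4.7e-05 to 1.00 over 15 settings. Genes lower past the floor numbered 14, and 3 without shared loci, failed status and small RNA genes, 6 without small RNA genes, 9 at the 99th percentile (a floor of 0.54), 2 by the authors' limits, 19 at a mean FPKM of 1 or more and 21 with no filter. Genes higher past the floor numbered 11, and 6 at a mean FPKM of 10 or more, 16 at 1 or more, 37 with no filter, 17 after quantile normalization, 4 at the 99th percentile, 0 by the authors' limits and 7 with the GC and length trend removed. With an arm left out there is no test and no count; without the knockdown arm the change of Vegfa was 0.20, Snhg1 -0.10, Upf3a 0.036, Upf3b 0.11, Malat1 0.014 and Meg3 0.14, and without the control arm that of Hspa1b was -0.11 and 1500012F01Rik -0.12, each the opposite sign of the mean of the 2 arms. The snoRNA host median kept its sign over the settings (-0.15 to -0.08), as did cholesterol synthesis (0.06 to 0.12). Without counts, the depth behind a value is unknown, and FPKM follows only shares of the RNA.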
